A study of Mus musculus with 6 samples.

Results

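The small leucine-rich proteoglycans are secreted matrix proteins built on a curved core of leucine-rich repeats. Most bind collagen fibrils and set their diameter and spacing, and many carry chondroitin, dermatan or keratan sulphate chains. In the eye they are known for organising the collagen of sclera and cornea, the tough outer coat and its clear window. The 10 genes Aspn, Prelp, Dcn, Lum, Bgn, Fmod, Ogn, Kera, Omd and Epyc were taken by symbol from probe sets, the groups of array probes that measure one transcript region, that a platform annotation names with 1 symbol, and for a gene with several the brightest over the 6 arrays was kept. All 10 were found among 22180 genes. Kera, the keratocan gene of the corneal stroma, was kept in the list as a cornea-rich member.

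RNA came from the RPE/choroid/scleral complex of mice at 12 months, which holds the retinal pigment epithelium, the vascular choroid and the sclera in a single dissection. There were 3 samples labelled 5XFAD hetero, whose transgenes encode mutant human APP and presenilin-1 under the neuronal Thy1 promoter, and 3 of wild-type littermates, with no experimental treatment in either group. Each sample was hybridised to 1 array, the number of arrays limits the precision, and nothing in the labels says whether each sample is a separate animal or a pool. The p-values below therefore rest on variation among these samples alone, part of which may be technical. In a bulk dissection, fewer cells of a type and less RNA per cell cannot be told apart.

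Arrays correlated at 0.981 to 0.990 over all probe sets. The mean of 6 genes that define the RPE lay between 10.74 and 11.23 (log2 intensity) and that of 9 connective tissue fibroblast genes between 7.88 and 8.10, so both tissues were present in every sample. Marker lists differed between the genotypes: the mean of 7 surface epithelium genes was 7.09 ± 0.38 in 5XFAD and 5.36 ± 0.04 in wild type (SD, n = 3), and that of 8 skeletal muscle genes was 6.67 ± 0.68 against 5.96 ± 0.82 with overlapping arrays. The RPE mean was 10.85 ± 0.11 against 11.17 ± 0.08. At an unadjusted limma p under 0.05, 6 of 7 surface epithelium genes and 3 of 8 muscle genes were higher in 5XFAD, and 5 of 6 RPE genes were lower. Among all genes, 2.89% were higher and 3.39% lower at that p. The part of these tissue shares in the values below was not tested. Mouse probes need not bind the human transgenes, so the genotype labels could not be checked.

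Of the 10 genes, 8 matched an entry in the RefSeq promoter table used here; Dcn and Lum did not. The 250 bases before the start are printed for the 3 genes whose groups did not overlap, because these are the members for which the genotypes stood apart. They are on the GRCm38.p6 build and run 5′ to 3′ on the gene's strand, and capitals mark the letters searched for on both strands.
Aspn (chr13:49544193-49544442, plus strand): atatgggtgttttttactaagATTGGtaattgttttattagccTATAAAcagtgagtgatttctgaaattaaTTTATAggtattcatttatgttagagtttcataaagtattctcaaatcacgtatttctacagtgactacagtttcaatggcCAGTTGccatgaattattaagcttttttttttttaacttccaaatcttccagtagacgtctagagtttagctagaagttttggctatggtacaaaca
Prelp (chr1:133921402-133921651, minus strand): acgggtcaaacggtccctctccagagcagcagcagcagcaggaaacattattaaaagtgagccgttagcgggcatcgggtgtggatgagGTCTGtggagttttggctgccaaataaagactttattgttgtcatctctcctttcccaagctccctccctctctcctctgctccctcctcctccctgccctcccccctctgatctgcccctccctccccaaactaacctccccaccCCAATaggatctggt
Fmod (chr1:134037004-134037253, plus strand): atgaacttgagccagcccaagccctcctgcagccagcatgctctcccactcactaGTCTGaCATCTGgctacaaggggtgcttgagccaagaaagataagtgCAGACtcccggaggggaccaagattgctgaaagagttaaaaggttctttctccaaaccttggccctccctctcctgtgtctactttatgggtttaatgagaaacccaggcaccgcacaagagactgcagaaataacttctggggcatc

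The motifs searched were the TATA box, spelled TATAAA, the CCAAT box by its own letters, the AP-1 site as TGANTCA, the E-box as CANNTG and the SMAD box as GTCTG. The Aspn window held 2 TATA boxes, 1 CCAAT box and 1 E-box. The Prelp window held 1 CCAAT box and 1 SMAD box. The Fmod window held 2 SMAD boxes and 1 E-box, with no overlap between matches. No motif was found in all 3 windows. Among all 32851 promoter windows of this length, 12.4% held a TATA box, 33.8% a CCAAT box, 6.7% an AP-1 site, 66.2% an E-box and 42.2% a SMAD box. Of the 9 start sites of the 8 genes, 2, 3, 0, 5 and 2 held these motifs in the same order. A match describes letters only.

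Most of the proteoglycan genes had no clear difference between 5XFAD and wild type, and the clearest was a higher signal for Aspn. Some intervals were wide, such as 0.51-fold to 2.03-fold for Omd and 0.82-fold to 1.63-fold for Ogn. Of the 10, 0 passed limma at a Benjamini-Hochberg adjusted p under 0.05, where 5 of 22180 genes did (0.0225%), and 2, Aspn and Prelp, had an unadjusted p under 0.05. Both of these were higher in 5XFAD, against 2.89% of all genes that were higher at that p. All 3 arrays of 5XFAD lay above all 3 of wild type for 3 genes, Aspn, Prelp and Fmod, against 4.72% of all genes. The difference was positive in 8 of 10, against 47.2% of all genes, and the median was 0.14, against -0.009 over all genes (log2). Most of the members varied together from array to array, as described below, so the 10 values are not independent.

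**Figure D1:**
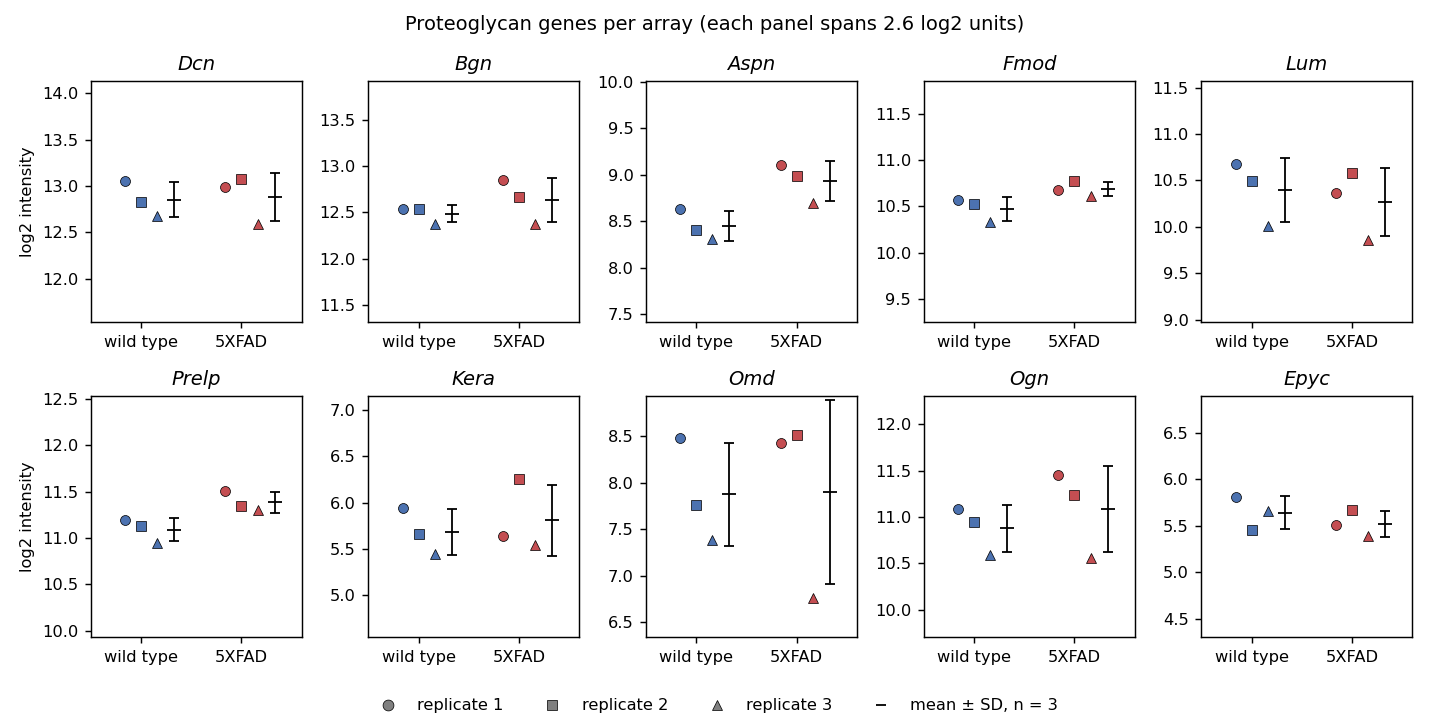
Log2 intensity (vertical axis) of each proteoglycan gene on each array, with wild type in blue and 5XFAD in red, a symbol for each replicate, and black bars for the mean ± SD (n = 3 per group). Each panel spans 2.6 log2 units. Aspn, Prelp and Fmod are the 3 genes whose groups do not overlap, and Omd has the widest spread, from 6.76 to 8.51.

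The first class of the family, with dermatan or chondroitin sulphate chains in its best known members, holds decorin, biglycan and asporin. Aspn encodes asporin, a collagen-binding protein that carries a run of aspartates in place of such a chain and binds TGF-beta. Aspn signal was 9.11, 8.99 and 8.70 in 5XFAD and 8.63, 8.41 and 8.31 in wild type. The lowest 5XFAD array thus stood just above the highest wild-type array. Its level was 1.40-fold higher in 5XFAD (95% confidence interval 1.13 to 1.74), a log2 difference of 0.49 ± 0.14 (SE), with a limma p of 0.0057 before and 0.52 after Benjamini-Hochberg adjustment over all genes. Over 17 alternatives, which reuse the same arrays and are not independent checks, the unadjusted p stayed under 0.05 in 16. In the other, the mean of the connective tissue fibroblast genes as a covariate, the difference was 0.24. That list mean was 8.05, 8.10 and 7.94 in 5XFAD and 7.95, 7.88 and 7.92 in wild type, and its part in the Aspn difference was not tested otherwise.

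Dcn encodes decorin, the founding member of the class, which binds collagen I fibrils and sequesters TGF-beta. Dcn signal was 12.99, 13.07 and 12.59 in 5XFAD and 13.05, 12.83 and 12.68 in wild type. The groups overlapped fully, with the lowest array and the highest array both in 5XFAD. Between groups the log2 difference was 0.03 ± 0.15 (95% confidence interval -0.31 to 0.37; limma, Benjamini-Hochberg adjusted p = 0.98), so that a change of the size seen for Aspn falls outside the interval.

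Bgn encodes biglycan, the close relative of decorin, which also acts as a ligand of Toll-like receptors when released from matrix. Bgn signal was 12.85, 12.67 and 12.38 in 5XFAD and 12.54, 12.54 and 12.38 in wild type. The 2 highest arrays were 5XFAD, while 5XFAD replicate 3 was level with the lowest wild-type array. Between groups the log2 difference was 0.15 ± 0.13 (-0.15 to 0.45; limma, Benjamini-Hochberg adjusted p = 0.93). A second Bgn probe set gave 0.10 ± 0.15.

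**Figure D2:**
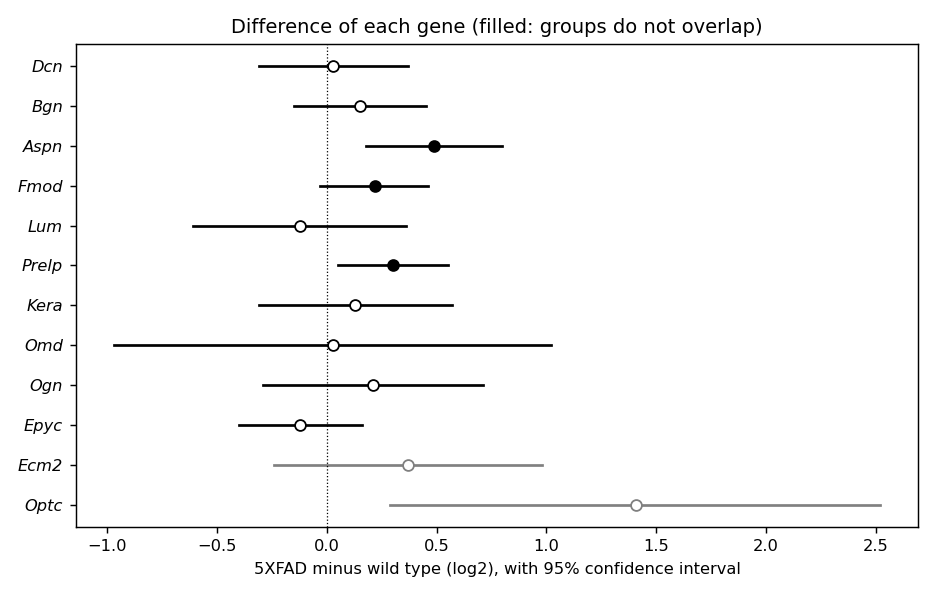
Log2 difference, 5XFAD minus wild type (horizontal axis), of the 10 proteoglycan genes (black) and their neighbours Ecm2 and Optc (grey), with 95% confidence intervals from limma on 3 against 3 arrays. Filled points mark genes whose groups do not overlap; the intervals of Aspn, Prelp and Optc leave out 0, and that of Omd is the widest among the 10, from -0.97 to 1.02.

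The second class holds the keratan sulphate proteoglycans fibromodulin, lumican, keratocan and osteoadherin, with the related PRELP. Prelp encodes a heparin-binding protein that anchors basement membranes to the collagen beneath. Prelp signal was 11.51, 11.34 and 11.30 in 5XFAD and 11.19, 11.13 and 10.95 in wild type. The groups did not overlap, and the nearest arrays were only about as far apart as neighbours within a group. The fold was 1.23 (1.03 to 1.46), a log2 difference of 0.30 ± 0.11, with a limma p of 0.025 before and 0.72 after Benjamini-Hochberg adjustment. Prelp has a second, far dimmer probe set, at 5.78 in 5XFAD and 5.68 in wild type, with a difference of 0.10 ± 0.13. That level is near the median of all probe sets, 5.66, where background compresses differences, so it says little about Prelp. Over the mean of both, which includes this dim set, the difference was 0.20 with an unadjusted limma p of 0.084.

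Fmod encodes fibromodulin, which binds collagen I and helps position the crosslinking enzyme lysyl oxidase. Fmod signal was 10.68, 10.77 and 10.61 in 5XFAD and 10.57, 10.52 and 10.33 in wild type. These groups stood apart by the smallest of margins, 10.61 against 10.57. This gave a log2 difference of 0.22 ± 0.11 (-0.03 to 0.46; limma, Benjamini-Hochberg adjusted p = 0.84). The second Fmod probe set gave a similar 0.27 ± 0.19, but its arrays overlapped, with 5XFAD replicate 3 at 7.57 and wild type replicate 1 at 7.95.

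Lum encodes lumican, which is needed for regular collagen fibrils in cornea and sclera. Lum signal was 10.36, 10.58 and 9.86 in 5XFAD and 10.68, 10.49 and 10.01 in wild type. The highest array was wild type and the lowest 5XFAD. Its log2 difference of -0.12 ± 0.21 (-0.61 to 0.36; limma, Benjamini-Hochberg adjusted p = 0.97) was well within the spread.

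Kera encodes keratocan, which is concentrated in the corneal stroma. Kera signal was 5.64, 6.25 and 5.54 in 5XFAD and 5.94, 5.66 and 5.45 in wild type. A single array, 5XFAD replicate 2, stood above the rest, and the others overlapped. The signal was dim, since the median of all probe sets is 5.66, and background compresses differences there. The log2 difference was 0.13 ± 0.19 (-0.31 to 0.57; limma, Benjamini-Hochberg adjusted p = 0.96), and it was -0.09 without 5XFAD replicate 2. The mean of 5 corneal stroma and endothelium genes was 8.91 ± 0.17 in 5XFAD and 9.12 ± 0.10 in wild type, the opposite direction to Kera. Of the 5, 2 were lower at an unadjusted limma p under 0.05, against 3.39% of all genes.

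Omd encodes osteoadherin, also called osteomodulin, a keratan sulphate proteoglycan best known from bone and dentine. Omd signal was 8.43, 8.51 and 6.76 in 5XFAD and 8.48, 7.76 and 7.38 in wild type. It spanned 1.75 log2 units, and its spread within groups exceeded that of 99.8% of all genes. 5XFAD replicate 3 was far below the others, and wild type replicate 1 was level with the other 2 arrays of 5XFAD. The log2 difference was 0.03 ± 0.44 (-0.97 to 1.02; limma, Benjamini-Hochberg adjusted p = 1.00), so that the interval of its level in 5XFAD runs from 0.51-fold to 2.03-fold of wild type. Without 5XFAD replicate 3 the difference was 0.60, and without 5XFAD replicate 2 it was -0.28.

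The third class holds osteoglycin and epiphycan. Ogn encodes osteoglycin, also called mimecan, a proteoglycan of cornea, sclera and vessel wall. Ogn signal was 11.45, 11.24 and 10.56 in 5XFAD and 11.09, 10.95 and 10.59 in wild type. The 2 highest arrays and the lowest array were all 5XFAD. The log2 difference was 0.21 ± 0.22 (-0.29 to 0.71; limma, Benjamini-Hochberg adjusted p = 0.94), and without 5XFAD replicate 3 it was 0.47 with an unadjusted limma p of 0.021. Epyc encodes epiphycan, a proteoglycan of growth plate cartilage. Epyc signal was 5.51, 5.67 and 5.39 in 5XFAD and 5.81, 5.46 and 5.66 in wild type, dim throughout and overlapping. Its log2 difference was -0.12 ± 0.12 (-0.40 to 0.16; limma, Benjamini-Hochberg adjusted p = 0.94).

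Most of the members varied together from array to array, to unequal degrees. Among the 9 brighter members, which include Kera although it lay near the median of all probe sets, the median pairwise correlation was 0.71. It ran from 0.20 for Prelp with Lum to 0.99 for Dcn with Omd, and was 0.95 for Aspn with Prelp. Epyc correlated with Prelp at -0.29 and with Omd at 0.61. Of the 9 members whose mean lay above the median of all probe sets (all but Epyc), 8 had their highest value on 5XFAD replicate 1 or 2, and all 9 had their lowest value on 5XFAD replicate 3 (5 genes) or wild type replicate 3 (4 genes). The mean deviation of these 9 from their own means was 0.24, 0.28 and -0.29 in 5XFAD and 0.14, -0.07 and -0.31 in wild type. The 5XFAD group thus held both the highest arrays and 1 of the 2 lowest. Omd, Lum, Dcn and Ogn deviated on 5XFAD replicate 3 by -1.13, -0.47, -0.28 and -0.42, whereas Aspn, Prelp and Fmod were at 0.01, 0.06 and 0.03 there. The spread within groups was larger than that of 96.7% of all genes for Lum, 97.3% for Ogn and 81.6% for Dcn, and larger than that of 27.8% for Fmod, 34.9% for Prelp and 71.1% for Aspn. Fmod and Prelp were thus the steadiest of the 10. The SD in 5XFAD and in wild type was 0.21 and 0.16 for Aspn, 0.11 and 0.12 for Prelp, and 0.08 and 0.13 for Fmod. Their differences of means were smaller than the range of Ogn over the 6 arrays (0.90), an unlike measure because a range spans single arrays.

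**Figure D3:**
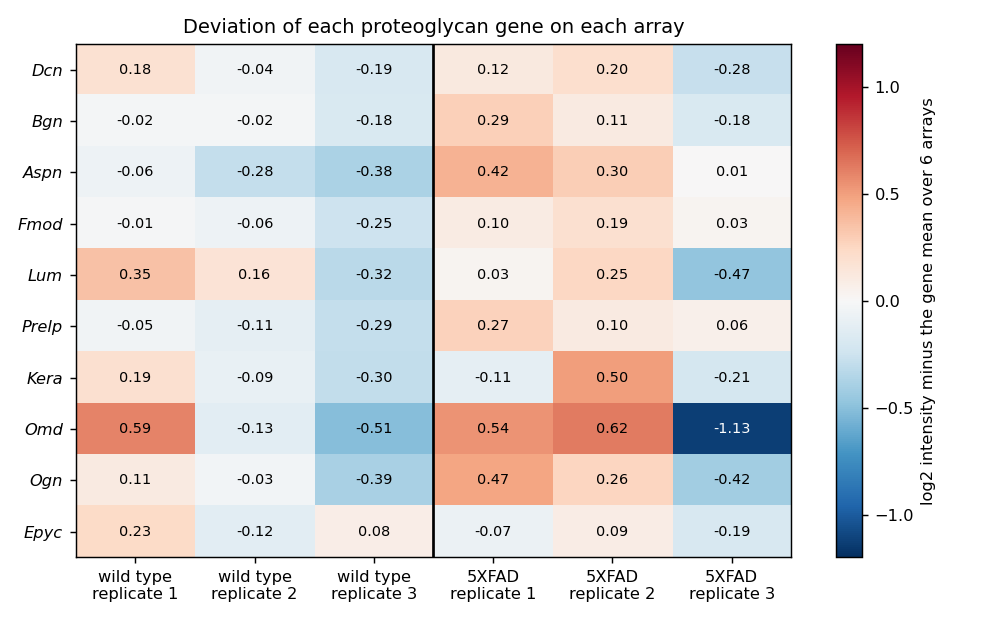
Deviation of each proteoglycan gene (rows) from its own mean over the 6 arrays (columns), in log2 units, red above and blue below. A row of Aspn, Prelp or Fmod changes colour near the line between genotypes, while Omd, from 0.62 to -1.13, is high on wild type replicate 1 and low on replicate 3 of each genotype.

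Leaving out single arrays changed the count of members at an unadjusted p under 0.05. It was 1, Aspn, in the fits that omit 5XFAD replicate 1 or wild type replicate 3, where 1149 and 1176 of 22180 genes had such a p. It was 3 without 5XFAD replicate 3, where Ogn joined and 1431 of all genes had such a p. With all arrays 1392 genes did. The median difference of the 10 was 0.14 with all arrays, 0.27 when 5XFAD replicate 3 was omitted, 0.26 when wild type replicate 1 was, 0.04 when wild type replicate 3 was, and 0.03 when 5XFAD replicate 1 or 5XFAD replicate 2 was. With the connective tissue fibroblast mean as a covariate, chosen after seeing the data, the median was -0.30.

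By RefSeq order most of these genes are neighbours, with 0 other protein-coding genes between them: Dcn, Lum, Kera and Epyc; Ecm2, Aspn, Omd and Ogn; and Optc, Prelp and Fmod. In the Dcn group log2 differences were 0.03, -0.12, 0.13 and -0.12 in that order. In it 0 of 4 genes had groups apart, where 11.3% of all genes did in either direction, too few genes to tell from that share. In the Aspn group they were 0.37 for Ecm2, 0.49 for Aspn, 0.03 for Omd and 0.21 for Ogn, and in the Prelp group 1.41 for Optc, 0.30 for Prelp and 0.22 for Fmod. Bgn lies elsewhere.

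Ecm2 and Optc, which encode leucine-rich matrix proteins outside the 10, also varied widely between arrays. In the list of other leucine-rich repeat proteoglycans to which they belong, 1 of 6 measured genes, Optc, had an unadjusted limma p under 0.05. The share of all genes at that p was 6.28%, and the median log2 difference of the list was 0.17. Ecm2 signal was 8.26, 8.40 and 7.36 in 5XFAD and 8.01, 7.62 and 7.27 in wild type, low on replicate 3 of each genotype as Omd was. Optc encodes opticin, a vitreous protein made by the ciliary body. Optc signal was 9.28, 9.11 and 9.31 in 5XFAD and 7.62, 9.19 and 6.67 in wild type. Wild type replicate 2 sat among the 5XFAD arrays, and the other wild-type arrays were far lower. The log2 difference was 1.41 ± 0.49 (limma, Benjamini-Hochberg adjusted p = 0.69). Without wild type replicate 2 it was 2.09 (0.028), and without wild type replicate 3 it was 0.83 (0.96). Vcan, the gene of the large proteoglycan versican, a component of vitreous and other loose matrix, followed the same arrays at 6.67, 6.58 and 6.89 in 5XFAD and 5.74, 6.87 and 5.65 in wild type. The Vcan difference was 0.63 ± 0.28 (0.80). It was 1.02 without wild type replicate 2 (limma, Benjamini-Hochberg adjusted p = 0.037) and 0.41 without wild type replicate 3 (0.98). Leaving out wild type replicate 2 removes the wild-type array that lay with 5XFAD, so for Optc and Vcan the smaller p follows from that choice. With that array left out 19 genes passed the adjusted threshold, against 5 with all arrays. Ciliary body carried into the dissection was not tested.

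**Figure D4:**
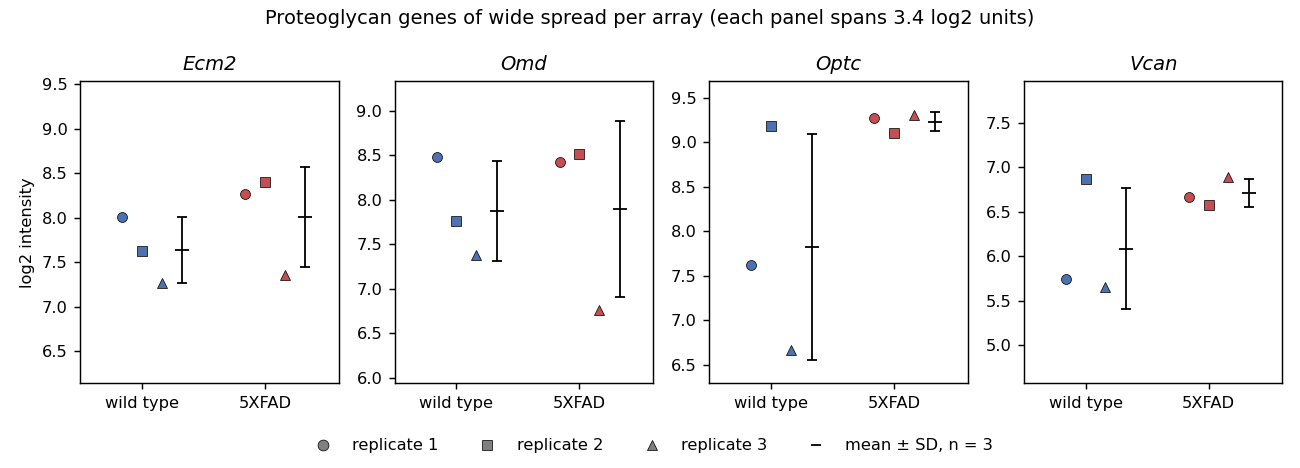
Log2 intensity (vertical axis) per array of 4 proteoglycan genes with wide spread, wild type in blue and 5XFAD in red, a symbol for each replicate and black bars for the mean ± SD (n = 3). Each panel spans 3.4 log2 units. Ecm2 and Omd are low on replicate 3 of each genotype, while for Optc and Vcan wild type replicate 2 lies with the 5XFAD arrays, at 9.19 and 6.87.

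The genes most like the family over the 6 arrays were found by correlation with the mean deviation of the 9 brighter members, among 3108 other genes of at least median signal and an SD of at least 0.2. The highest were Tbc1d7 (r = 0.992), Ecm2 (0.991), Tspan6 (0.987), Tfpi (0.986), Acot2 (0.984) and Clip3 (0.981). These are descriptions over 6 arrays, they share the arrays' own differences, and Omd weighs most in the mean. Differences ran from 0.09 for Clip3 to 0.37 for Ecm2, with overlapping groups in each. The mean deviation used to pick these 6 genes itself overlapped between the genotypes. Overlap and small differences therefore follow from the choice and are no result about these genes.

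The enzymes that build the sulphated chains gave small differences. In the list of linker, chondroitin and dermatan sulphate synthesis 0 of 20 measured genes had an unadjusted limma p under 0.05 (6.28% of all genes did), and the median log2 difference was -0.03. The smallest p belonged to Ust, a sulphotransferase that acts on uronic acid residues (-0.25 ± 0.11; Benjamini-Hochberg adjusted p = 0.80), and Chst7, a chondroitin 6-sulphotransferase (-0.20 ± 0.11; 0.88). In the keratan sulphate list 1 of 8 was lower at an unadjusted p under 0.05, the galactosyltransferase gene B4galt1, and the median was 0.01. B4galt1 signal was 9.04, 8.98 and 8.75 in 5XFAD and 9.29, 9.33 and 9.11 in wild type, so that the groups did not overlap (-0.32 ± 0.12; limma, Benjamini-Hochberg adjusted p = 0.70).

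The collagens to which these proteoglycans bind also gave small differences. Of 16 fibrillar and fibril-associated collagen genes 0 had an unadjusted limma p under 0.05 (6.28% of all genes did). Of the 16, 10 were negative, with a median of -0.04. The smallest p values were those of Col1a2, a chain of collagen I (-0.22 ± 0.11; Benjamini-Hochberg adjusted p = 0.83), and Col5a2, a chain of the fibril-nucleating collagen V (0.21 ± 0.11; 0.85). Among 16 genes of collagen processing and crosslinking 2 were higher and 1 lower at an unadjusted p under 0.05, with a median of 0.00. Of all genes, 2.89% were higher and 3.39% lower at that p. Lox encodes lysyl oxidase, the crosslinking enzyme that fibromodulin binds. Lox signal was 8.57, 8.06 and 8.06 in 5XFAD and 7.84, 7.58 and 7.64 in wild type, groups that did not overlap (0.54 ± 0.15; limma, unadjusted p = 0.006 and Benjamini-Hochberg adjusted p = 0.53). Its relative Loxl3 was at 0.28 ± 0.11 (0.76), and Tll2, a tolloid-like protease of the family that trims procollagen, at -0.24 ± 0.11 (0.79).

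**Figure D5:**
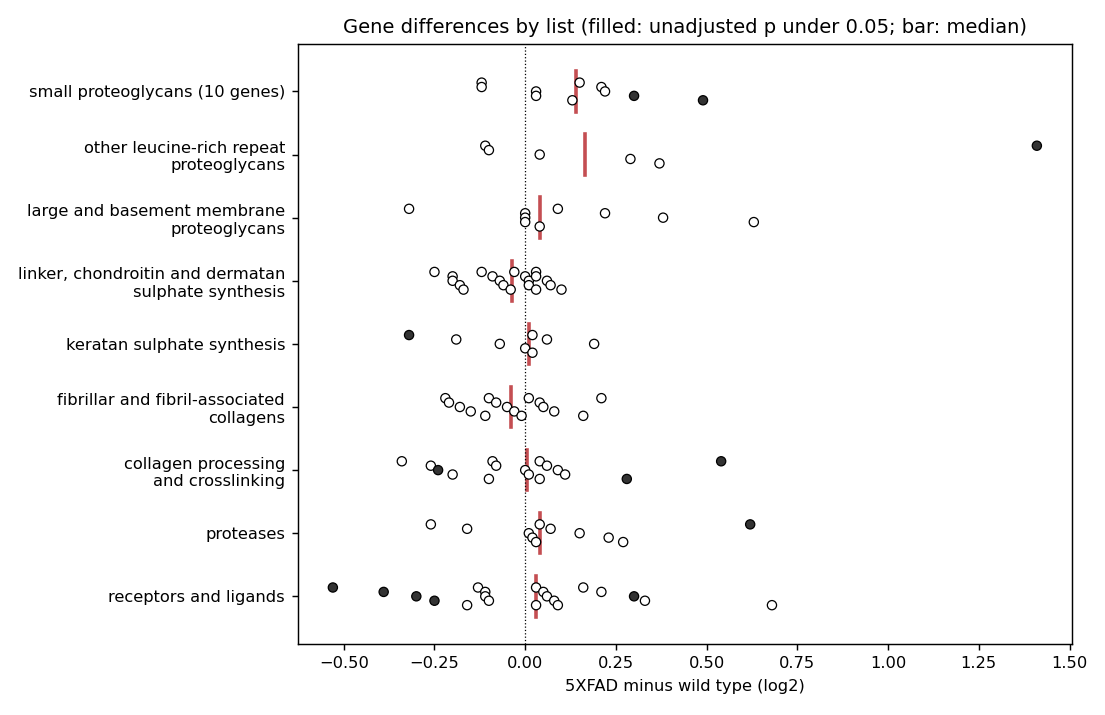
Log2 difference, 5XFAD minus wild type (horizontal axis), of each measured gene in the family and in 8 related lists (rows), 1 point per gene. Filled points have an unadjusted limma p under 0.05 and red bars are medians, which run from -0.04 for the collagens to 0.17 for the other leucine-rich repeat proteoglycans; the point farthest to the right is Optc at 1.41.

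Proteases that cut these proteins and the receptors and growth factors they bind gave differences of both signs. Of 11 proteases 1 had an unadjusted limma p under 0.05, against 6.28% of all genes. It was Adamts5, an aggrecanase that also cleaves biglycan and versican. Adamts5 signal was 6.56, 7.07 and 6.73 in 5XFAD and 5.88, 6.57 and 6.04 in wild type, with wild type replicate 2 level with the lowest 5XFAD array (0.62 ± 0.19; Benjamini-Hochberg adjusted p = 0.60). Of 20 receptor and ligand genes 1 was higher and 4 lower at that p, against 2.89% and 3.39% of all genes. The higher was P2rx4, an ATP-gated channel tied to biglycan signalling (0.30 ± 0.10; 0.65), and the lower included Met, the hepatocyte growth factor receptor that decorin restrains (-0.39 ± 0.11; 0.53), Bmp4 (-0.53 ± 0.17; 0.65) and Erbb3 (-0.30 ± 0.11; 0.71). The groups of these 4 genes did not overlap, but they were named for their small p. Over the whole list of 20, groups did not overlap for 2 genes higher and 5 lower in 5XFAD. The share of all genes, in either direction, was 11.3%. The RPE mean was also lower in 5XFAD in the same arrays, and its part in the lower values was not tested. Among 9 large and basement membrane proteoglycans 0 had an unadjusted limma p under 0.05. Beside Vcan, Acan, the aggrecan gene of cartilage, had the smallest p (-0.32 ± 0.16; Benjamini-Hochberg adjusted p = 0.85). The 8 tendon and cartilage genes, as a marker of connective tissue other than sclera, had a mean of 7.49 ± 0.15 in 5XFAD and 7.46 ± 0.07 in wild type.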

How the data were processed

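The authors deposited normalized log2 intensities per probe set for 6 arrays, made with Affymetrix Expression Console 1.1 and RMA (background correction, quantile normalization, probe set summary), per the submitters' processing notes. Of filters, the sources used here say nothing. Of 33793 probe sets, 23521 had 1 symbol in the platform annotation, 1814 several and 8458 none; for 1082 genes with more than 1 the brightest was kept. Median log2 intensity per array was 5.59 to 5.71, and values were used as deposited.

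For 22180 genes, 5XFAD was set against wild type in limma 3.58.1 (R 4.3.3; lmFit and eBayes, two-sided tests without covariates). The residual degrees of freedom were 4 and those of the prior 5.23. All p-values called adjusted are Benjamini-Hochberg values over that whole table. The fit was tested on simulated data. Replicate numbers were not used as pairs in the main fit. The correlation of deviations between same-numbered samples was -0.06, -0.05 and 0.13, and between the others it ran from -0.08 to 0.13. With 3 arrays per group this check has little power, and a batch shared by same-numbered samples was not tested by it. The genes, lists and tests were chosen with earlier results of these data known. Genes outside the 10 were named by a rule: those with an unadjusted p under 0.05 in a list, at most 4, or else the 2 of smallest p, and the 6 genes most like the family. Marker lists are given by their means and counts, without naming their genes. Ecm2 was also named as a neighbour. Alternatives covered normalization, dim genes, the variance prior, probe set choice, the replicate number, list means as covariates and each array left out.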

Additional observations from a re-analysis of the deposited data

How the results depend on the processing

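Over 17 alternatives the 10 proteoglycan genes gave 168 values. Of these 150 kept their direction and stayed outside the adjusted threshold, and 18 changed sign. The replicate block, the dim gene filters, the trended prior and the fit of every probe set keep the log2 difference of the main fit. Its sign could not change there, so the 150 overstates how steady the values are. The lowest Benjamini-Hochberg adjusted p from limma was 0.33. Aspn, Prelp and Fmod did not change sign, with ranges of 0.24 to 1.42, 0.20 to 0.77 and 0.12 to 0.35. The surface epithelium covariate nearly coincides with genotype, since its groups do not overlap, so its estimates are extrapolations. With it, log2 differences were 0.91 for Lum, 0.19 for Epyc, -0.19 for Vcan and 0.25 for Acan. They were 0.29 for B4galt1, 0.24 for Col1a2, 0.39 for Bmp4 and 0.28 for Erbb3. All of these changed sign. The median of the 10 was 0.91, and 4 of them had an unadjusted p under 0.05, where 950 of 22180 genes did. With this covariate 0 genes passed the adjusted threshold. With the connective tissue covariate, added after seeing the data, differences were -0.31 for Dcn, -0.07 for Bgn, -0.29 for Ogn, -0.30 for Kera, -1.26 for Omd, -0.36 for Ecm2, -0.27 for Tbc1d7, -0.30 for Tspan6, -0.22 for Tfpi, -0.45 for Acot2 and -0.26 for Clip3, with a median of the 10 of -0.30. With the skeletal muscle covariate Omd was at -0.05. The cause of these changes was not tested.

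Where leaving out 1 array changed a sign, log2 differences over the 6 such fits ran from -0.06 to 0.18 for Dcn, from -0.32 to 0.08 for Lum, from -0.09 to 0.26 for Kera, from -0.28 to 0.60 for Omd, from -0.02 to 0.31 for Tspan6 and from -0.05 to 0.25 for Clip3. Dcn was negative without 5XFAD replicate 1 (-0.02), 5XFAD replicate 2 or wild type replicate 3, Lum positive without 5XFAD replicate 3 or wild type replicate 1 (0.02), Kera negative without 5XFAD replicate 2, and Omd negative without any single array other than 5XFAD replicate 3 or wild type replicate 1. Leaving out 1 array, the median of the 10 ran from 0.03 to 0.27, their count at an unadjusted p under 0.05 from 1 to 3, the count of all genes past the adjusted threshold from 3 to 19 and that at an unadjusted p under 0.05 from 1147 to 1885. Quantile normalization, the mean of all probe sets and the skeletal muscle covariate each left 1 member at an unadjusted p under 0.05. Of 22180 genes, 1485, 1378 and 1431 were at that p in these fits. The adjusted count was 8 without the dimmest 30% of genes, 9 with median centring and 9 with a trended and robust prior, and 816 genes had an unadjusted p under 0.05 without the dimmest 50%, where fewer genes were tested. With the replicate block the members at an unadjusted p under 0.05 stayed 2, where 1495 of all genes were at that p, and the adjusted count was 6. Kera and Epyc lay among the dimmest 50% of genes, so signal over background limits what could be seen for them.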
